A study of Mus musculus with 6 samples.

Results

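The 10 genes described here serve the B cell lineage and the joining of antigen receptor gene segments: *Ighm*, *Cd79a*, *Cd79b*, *Vpreb1*, *Igll1*, *Ebf1*, *Pax5*, *Rag1*, *Rag2* and *Dntt*. They were chosen by name for these roles out of 25690 gene symbols, and all 10 were found in the tables. RNA-seq was performed on CD27SP NK cells of the BM, an immature subset that carries NK1.1 and CD27 and was sorted as negative for CD11b and CD3. There were 3 libraries of *Ncr1cre Myc* wt/wt and 3 libraries of *Ncr1cre Myc* fl/fl genotype. Both genotypes carry *Ncr1cre*, which expresses the Cre recombinase from the NKp46 gene, so that the wt/wt mice are controls for Cre and the fl/fl mice lose *Myc* in cells that have begun to express NKp46. The mice were on a C57BL/6 background and matched for sex and age. The libraries carry the replicate numbers 1, 2 and 4 in each genotype, and since the labels do not state that each came from its own mouse, p-values measure the spread between these libraries. In bulk RNA, more cells of a type and more RNA per cell cannot be told apart, and this holds for every value given here.

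A developing B cell assembles the gene of its heavy chain by cutting and joining V, D and J segments. Rag1 and Rag2 form the enzyme that cuts beside the segments, and terminal deoxynucleotidyl transferase, encoded by *Dntt*, adds untemplated nucleotides at the joints. The heavy chain of the IgM class, encoded by *Ighm*, is first displayed with the surrogate light chain made of Vpreb1 and Igll1 and with the signalling subunits Cd79a and Cd79b. Ebf1 specifies the lineage and Pax5 commits cells to it. Recombination genes are not restricted to B cells, being used by lymphoid progenitors and T cell precursors as well, and the *Ighm* region can also be transcribed from a locus that has not been rearranged.

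*Ighm* and *Dntt* are each annotated with a pair of transcripts that differ in their coding sequence. Stretches that tell them apart are shown because the levels per transcript given further on rest on them in part. The transcripts of each pair also differ in their ends, which are not shown. In *Ighm*, the 59 bases at chr12:113420870-113420928 (GRCm38, minus strand) encode the tail of the secreted heavy chain, and the 116 bases at chr12:113418953-113419068 are an exon of the membrane form. In *Dntt*, the 60 bases at chr19:41058567-41058626 (plus strand) are an exon of the long form of the enzyme that is absent from the short form. Each stretch is found in one form only over its whole length and is therefore printed without capitals, 5′ to 3′, from the GENCODE M21 transcripts.
*Ighm* secreted tail: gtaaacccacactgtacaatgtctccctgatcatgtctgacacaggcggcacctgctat
*Ighm* membrane exon: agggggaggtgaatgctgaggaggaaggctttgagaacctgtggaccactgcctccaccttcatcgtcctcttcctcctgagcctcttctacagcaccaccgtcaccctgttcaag
*Dntt* long form exon: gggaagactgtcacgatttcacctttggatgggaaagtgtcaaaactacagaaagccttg

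The estimated counts totalled 8101219 in wt/wt library 1 and between 54550907 and 64962491 in the other 5 libraries, so that a weakly expressed gene is measured with the least precision in wt/wt library 1. A count of 0 there allows up to 0.390 CPM (counts divided by the library's total and scaled to a common total, normalized between libraries), taking 3 counts as the limit, against 0.0458 to 0.0549 CPM in the other libraries, and these limits cover counting error only. *Myc*, the gene targeted, was at 164 to 200 CPM in the wt/wt libraries and at 61.5 to 76.5 CPM in the fl/fl libraries (log2 fold change −1.44, SE 0.155, adjusted p = 0.00189), with no overlap between genotypes. The tables count whole transcripts, so reads from any part of *Myc* that is not deleted are counted too. The sorted cells carried NK cell markers at a high level, and the sum of 12 of them was 16429 to 16892 CPM in wt/wt libraries and 18294 to 19202 CPM in fl/fl libraries.

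The members did not behave as 1 group. *Dntt*, *Cd79a* and *Cd79b* were higher in every *Ncr1cre Myc* fl/fl library than in every *Ncr1cre Myc* wt/wt library, *Ighm* was abundant in all 6 libraries with no difference beyond their spread, and *Vpreb1*, *Igll1*, *Pax5* and *Rag1* were near the limit of detection in most libraries. Of the 10 members, 6 had enough counts to be tested, namely *Ighm*, *Cd79a*, *Cd79b*, *Ebf1*, *Rag2* and *Dntt*. A gene was called where its adjusted p was below 0.01 and its log2 fold change was 0.5 or more in size. EdgeR called 0 of the 6 higher and 0 lower, where it called 1.28% of all 15474 tested genes higher and 0.872% lower. Limma-trend called 0 members as well, with 1.07% of all genes higher and 0.64% lower, while DESeq2 called 1, *Dntt*, higher, with 4.16% of all genes higher and 3.47% lower by that tool. At an adjusted p below 0.05, edgeR called 1 member higher (*Dntt*) and 0 lower, against 4.45% and 3.38% of all genes. At an unadjusted p below 0.05, 3 members were higher and 0 were lower, against 12.4% and 10.2% of all genes. Ranges of CPM that do not overlap between genotypes, with fl/fl higher, were seen for the same 3 members of the 6 tested, against 16.2% of all genes, and for 0 members with fl/fl lower, against 15.1%. The median log2 fold change of the 6 tested members was 1.02, beside 0.014 over all genes tested.

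**Figure D1:**
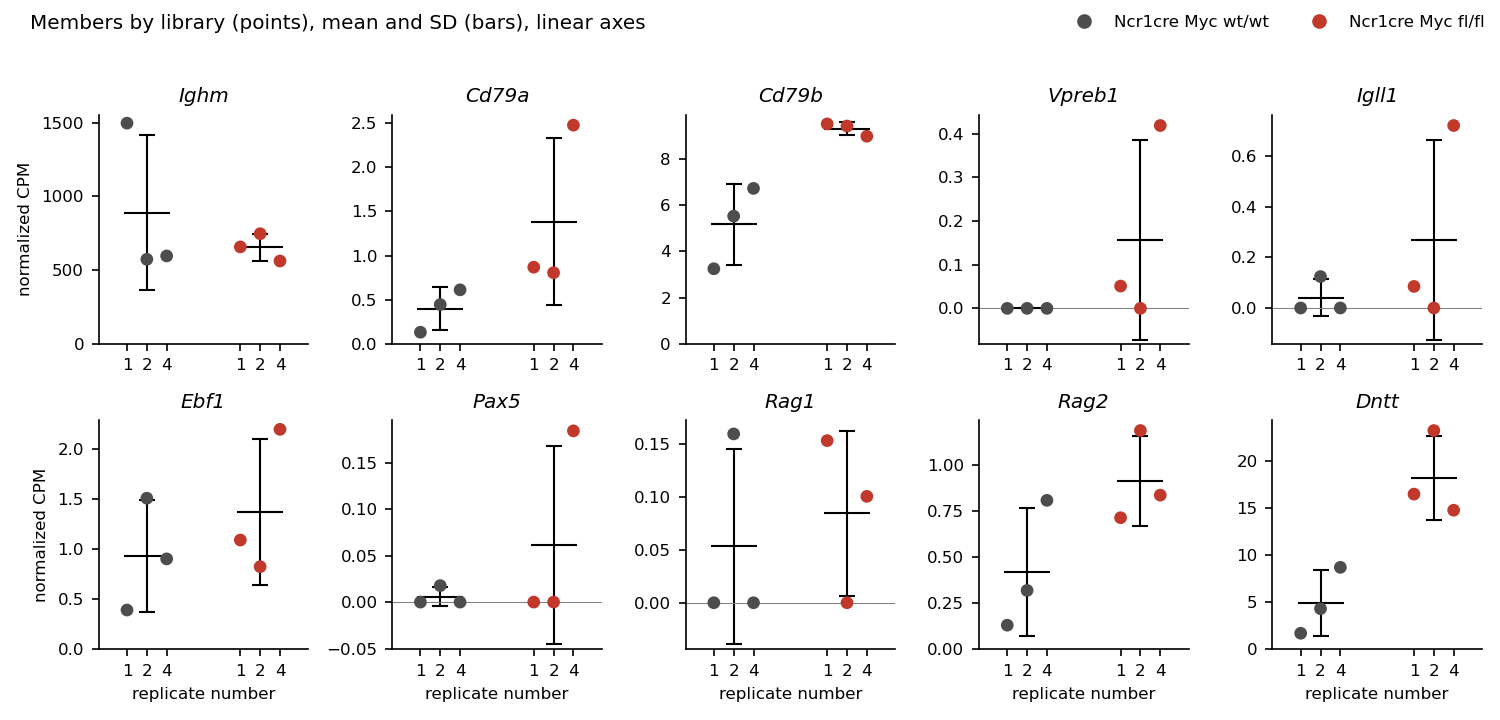
Normalized CPM of the 10 members (vertical axes, linear, 1 scale per gene) in the *Ncr1cre Myc* wt/wt libraries (grey) and fl/fl libraries (red), with replicate numbers below; horizontal bars are means and whiskers are SDs of 3 libraries. *Dntt*, *Cd79a* and *Cd79b* are the members whose red points all lie above the grey ones among those tested, and the highest *Ighm* point, 1496 CPM, is wt/wt library 1.

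Per transcript length, the members span a wide range. By the mean TPM (a share of all transcripts that is corrected for length) in wt/wt libraries, *Ighm* came first with 804 ± 434 (SD, n = 3), followed by *Cd79b* at 6.46 ± 2.33, *Dntt* at 3.47 ± 2.53, *Ebf1* at 0.464 ± 0.322, *Cd79a* at 0.407 ± 0.257 and *Rag2* at 0.162 ± 0.114. The means of *Igll1*, *Rag1*, *Pax5* and *Vpreb1* lay at 0.0801 TPM or below. In fl/fl libraries *Ighm* was again first with 649 ± 85.8 TPM, and *Dntt* at 13.6 ± 3.22 TPM stood beside *Cd79b* at 12.6 ± 0.376 TPM, followed by *Cd79a* at 1.51 ± 1.03 TPM, *Ebf1* at 0.670 ± 0.326 TPM, *Igll1* at 0.534 ± 0.791 TPM and *Rag2* at 0.411 ± 0.165 TPM. Within either genotype the TPM ranges of *Cd79b* and *Dntt* overlapped, as did those of each pair of neighbours from *Cd79a* and *Ebf1* downward, so that the order of these genes is not resolved. The gap between *Ighm* and the next member exceeded the spread of both in both genotypes.

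*Ighm*, on chr12:113418558-113422730 (GRCm38, minus strand), encodes the constant region of the IgM heavy chain. It was measured at 1496, 572 and 595 CPM in wt/wt libraries 1, 2 and 4, and at 656, 746 and 561 CPM in fl/fl libraries 1, 2 and 4. The shallow wt/wt library 1 stands far above the other 5, which lie close together, and the genotypes overlap. The means were 888 ± 527 CPM (SD, n = 3) in wt/wt and 654 ± 92.6 CPM in fl/fl libraries, and without wt/wt library 1 the wt/wt mean was 584 CPM. The log2 fold change was −0.29 (SE 0.253, adjusted p = 0.561), and without replicate 1 of both genotypes it was 0.15 (adjusted p = 0.689), so the sign of this difference rests on 1 library.

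*Cd79a* (chr7:24897381-24902197, plus strand) encodes the alpha signalling subunit of the B cell receptor. It had 1, 25 and 40 counts in wt/wt libraries 1, 2 and 4, and 51, 44 and 148 counts in fl/fl libraries 1, 2 and 4. In CPM this was 0.130, 0.443 and 0.611 against 0.868, 0.805 and 2.48, so that every fl/fl library was above every wt/wt library and fl/fl library 4 was above the other fl/fl libraries. The log2 fold change was 1.64 (SE 0.507, adjusted p = 0.0839), which does not pass the threshold, and without fl/fl library 4, in a fit without the replicate block, it was 0.88 (adjusted p = 0.416).

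*Cd79b* (chr11:106311341-106314762, minus strand) encodes the beta subunit that pairs with Cd79a. It was measured at 3.25, 5.53 and 6.73 CPM in wt/wt libraries and at 9.53, 9.44 and 8.99 CPM in fl/fl libraries. The fl/fl libraries were close to one another, with a mean of 9.32 ± 0.286 CPM (SD, n = 3), and all lay above the wt/wt libraries, with a mean of 5.17 ± 1.77 CPM. The log2 fold change was 0.87 (SE 0.274, adjusted p = 0.0898), which does not pass the threshold. *Cd79b* was thus far more abundant than its partner in every library, with 12.6 ± 0.376 against 1.51 ± 1.03 TPM in fl/fl libraries.

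The surrogate light chain was close to undetectable. *Vpreb1* (chr16:16868403-16870843, minus strand), which forms its variable-like part, had 0 counts in each of the 3 wt/wt libraries and 3, 0 and 25 counts in fl/fl libraries 1, 2 and 4. *Igll1* (chr16:16860671-16863985, minus strand), which forms its constant-like part, had 0, 7 and 0 counts in wt/wt libraries and 5, 0 and 43 counts in fl/fl libraries. Both genes therefore had most of their counts in 1 library, fl/fl library 4, at 0.419 CPM for *Vpreb1* and 0.720 CPM for *Igll1*, and neither had enough counts to be tested. *Top3b*, a plus-strand gene whose start overlaps *Vpreb1*, had 0, 38 and 39 counts in wt/wt libraries and 188, 230 and 0 counts in fl/fl libraries. It was thus at 0 both in fl/fl library 4, where *Vpreb1* was highest, and in wt/wt library 1, where *Vpreb1* was at 0. The *Vpreb1* transcript that was counted spans 16868403-16869255 and does not reach the *Top3b* start at 16870736. For wt/wt library 1, whose limit is 0.390 CPM, a count of 0 allows a level like that of *Vpreb1* in the other fl/fl libraries.

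Of the transcription factors, *Ebf1* (chr11:44617317-45008091, plus strand) was measured at 0.390, 1.51 and 0.901 CPM in wt/wt libraries 1, 2 and 4 and at 1.09, 0.823 and 2.19 CPM in fl/fl libraries. The genotypes overlapped, and fl/fl library 4 was again the highest. The log2 fold change was 0.51 (SE 0.549, adjusted p = 0.658), and without replicate 4 it was −0.0050, so the direction rests on that replicate. *Pax5* (chr4:44524757-44710487, minus strand) had 0, 1 and 0 counts in wt/wt libraries and 0, 0 and 11 counts in fl/fl libraries, too few to be tested. Of the annotated genes that overlap *Pax5*, *4930517J16Rik* and *5730488B01Rik* had 0 counts in all 6 libraries. Fl/fl library 4 was thus the highest of the 6 libraries for *Vpreb1*, *Igll1*, *Cd79a*, *Ebf1* and *Pax5*. For *Ighm* it was the lowest of the 6 by CPM but not by TPM, where it was at 557 against 554 in both wt/wt libraries 2 and 4.

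The subunits of the recombinase differed in level. *Rag1* (chr2:101638282-101649501, minus strand), which holds the catalytic site, had 0, 9 and 0 counts in wt/wt libraries and 9, 0 and 6 counts in fl/fl libraries, and it was not tested. *Rag2* (chr2:101624718-101632529, plus strand), the partner that Rag1 needs for cutting, had 1, 18 and 53 counts in wt/wt libraries and 42, 65 and 50 counts in fl/fl libraries. This was 0.130, 0.319 and 0.809 CPM against 0.715, 1.19 and 0.837 CPM, and the genotypes overlapped through wt/wt library 4 and fl/fl library 1. The log2 fold change of *Rag2* was 1.17 (SE 0.590, adjusted p = 0.281). It was 0.74 without replicate 2 and 2.01 without replicate 4 of both genotypes, and 1.74 without wt/wt library 4 against 0.90 with all libraries in the fit without the replicate block. Both genes lie within *B230118H07Rik*, a minus-strand gene at 9.25 to 15.6 CPM in the 6 libraries (log2 fold change −0.03, adjusted p = 0.961). The library kit does not mark strand, so reads from sequence that these genes share cannot be assigned with certainty.

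*Dntt* (chr19:41029275-41059525, plus strand) had the highest log2 fold change of the 6 tested members in the edgeR fit, although that of *Cd79a* was higher without replicate 2 (2.19 against 1.80) and, in the fit without the replicate block, without fl/fl library 2 (1.86 against 1.59). It had 13, 243 and 571 counts in wt/wt libraries 1, 2 and 4 and 971, 1274 and 884 counts in fl/fl libraries 1, 2 and 4. In CPM it was at 1.69, 4.31 and 8.72 in wt/wt libraries and at 16.5, 23.3 and 14.8 in fl/fl libraries, so that the lowest fl/fl library was above the highest wt/wt library. The means were 4.90 ± 3.55 CPM (SD, n = 3) and 18.2 ± 4.49 CPM, a ratio of 3.71. The log2 fold change was 2.02 (SE 0.402, adjusted p = 0.0170), past an adjusted p of 0.05 but not the threshold of 0.01. By DESeq2, *Dntt* was past the threshold (log2 fold change 2.08, adjusted p = 5.1e-06), and over all alternatives the log2 fold change lay between 1.47 and 2.75 with adjusted p from 5.1e-06 to 0.0929. The lowest of these fold changes came from leaving out wt/wt library 1 (adjusted p = 0.0363, fit without the replicate block).

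**Figure D2:**
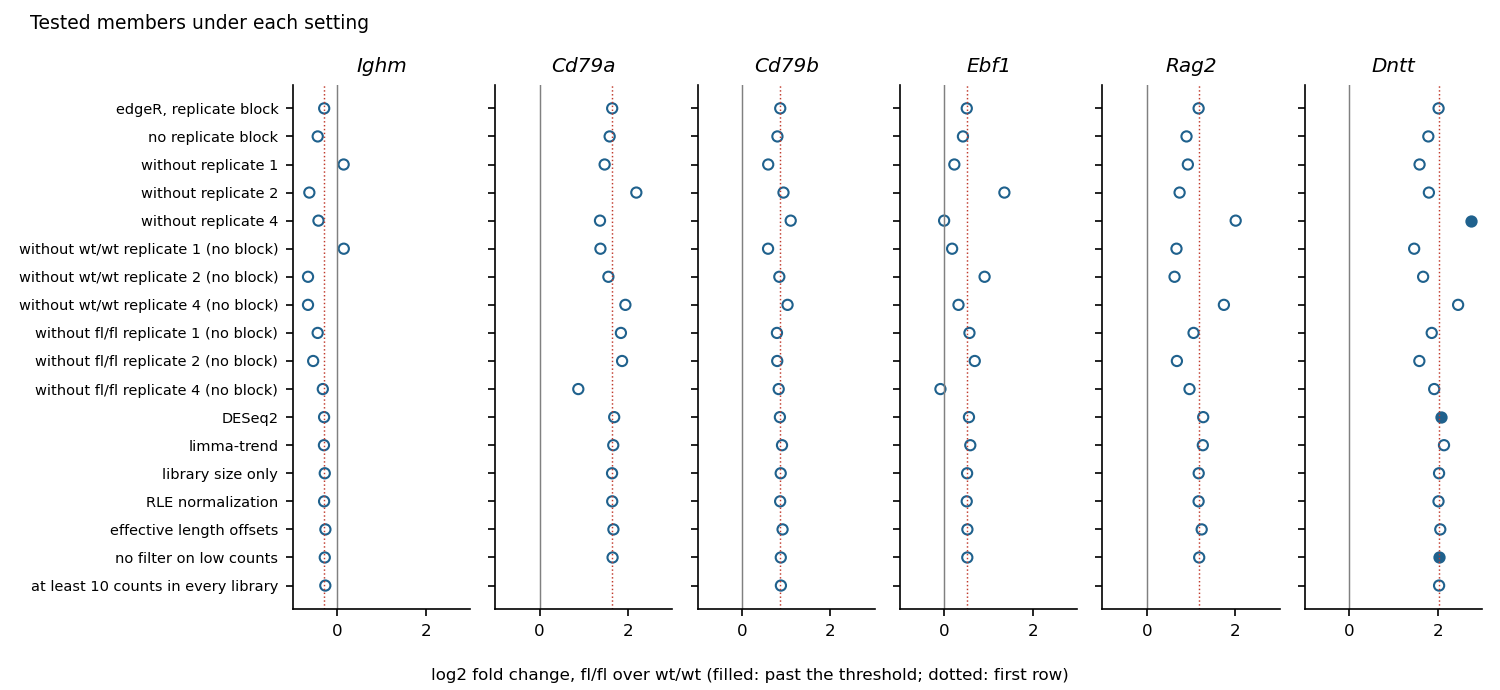
Log2 fold change (fl/fl over wt/wt, horizontal axes) of the 6 tested members under each way of processing the counts (rows); filled points are past the threshold of the adjusted p and the fold change, and the dotted line marks the first row. All points of *Dntt* lie between 1.47 and 2.75 and 3 are filled, while those of *Ighm* and *Ebf1* lie on both sides of 0.

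The authors' tables give counts for each transcript, and they were read for the 3 members with more than 1 transcript and enough counts. Of the *Ighm* counts, the transcript ending in the secreted tail printed above (ENSMUST00000103426) held 45.0% (95% Wilson interval 44.1 to 46.0%), 34.6% (34.1 to 35.1%) and 31.2% (30.7 to 31.6%) in wt/wt libraries 1, 2 and 4. In fl/fl libraries 1, 2 and 4 it held 27.8% (27.3 to 28.2%), 32.3% (31.8 to 32.7%) and 38.2% (37.7 to 38.7%). The membrane transcript therefore held the larger part of the counts in each library, and the genotypes overlapped. The libraries differ by more than these intervals, which cover counting error only and not the error of dividing reads between transcripts.

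The long form of *Dntt*, which holds the 60-base exon printed above (ENSMUST00000051806), took 4.12% (2.25 to 7.41%) and 5.60% (4.00 to 7.80%) of the counts in wt/wt libraries 2 and 4. In fl/fl libraries 1, 2 and 4 it took 7.83% (6.30 to 9.69%), 7.46% (6.14 to 9.03%) and 20.0% (17.5 to 22.8%). In wt/wt library 1 it held 6 of 13 counts, with an interval of 23.2 to 70.9%, which lies above those of the other 5 libraries but rests on few counts. The short form was thus the main form in the 5 deep libraries, and the share of the long form was highest in fl/fl library 4 among them. For *Cd79b*, the transcript ENSMUST00000044228 held 0 of 25 counts in wt/wt library 1, with an interval of 0 to 13.3%, and between 9.88% and 39.4% in the other 5 libraries, without an order by genotype.

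**Figure D3:**
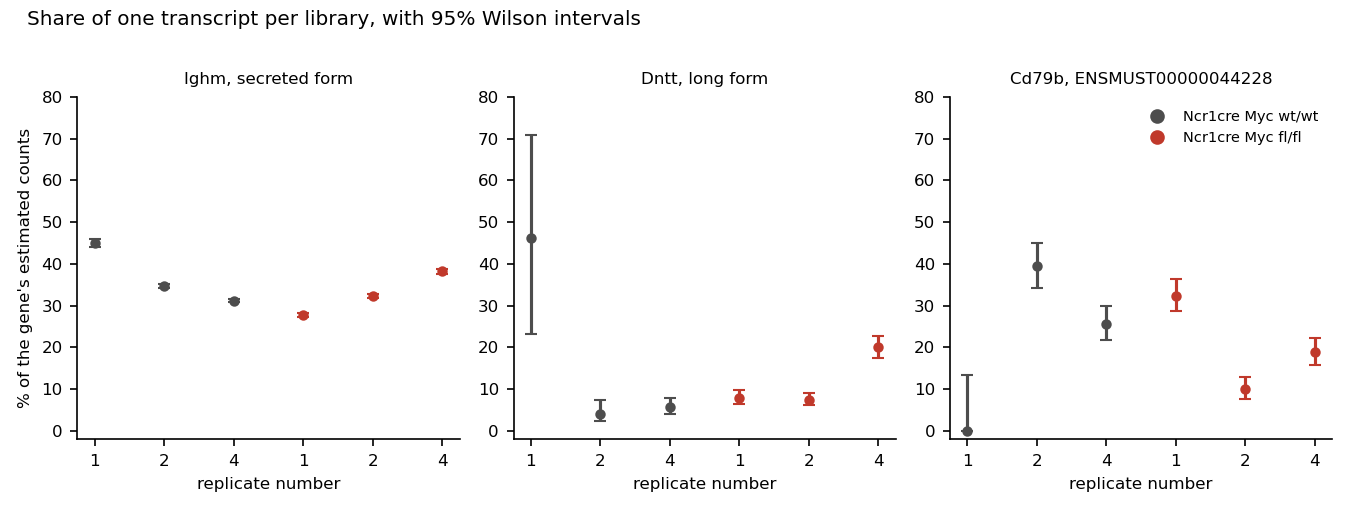
Share of the estimated counts of *Ighm*, *Dntt* and *Cd79b* held by 1 transcript of each (vertical axes, percent) in the wt/wt libraries (grey) and fl/fl libraries (red); whiskers are 95% Wilson intervals, which cover counting error only. The *Ighm* secreted form lies between 27.8% and 45.0%. The *Dntt* long form is at 46.2% in wt/wt library 1, on 13 counts, and among the deeper libraries it reaches 20.0% in fl/fl library 4.

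Since *Ighm* counts can come from a rearranged or an unrearranged locus, the variable segments and light chain genes were read beside it. All 113 annotated heavy chain V genes together had 39, 388 and 269 counts in wt/wt libraries 1, 2 and 4 and 134, 2198 and 1346 counts in fl/fl libraries. For each 100 *Ighm* counts there were 0.339, 1.20 and 0.690 heavy chain V counts in wt/wt libraries and 0.347, 5.39 and 4.02 in fl/fl libraries. *Ighm* counts thus far outnumbered those of V segments in every library. Reads of the many similar V genes can be divided between them by the quantification, so single V genes are uncertain, and the D and J segments are listed at 0 in every library.

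The kappa and class-switched immunoglobulin genes overlapped between genotypes and varied widely between libraries of 1 genotype. *Igkc*, the constant region of the kappa light chain, was at 14.4, 13.9 and 11.0 CPM in wt/wt libraries and at 1.91, 114 and 55.8 CPM in fl/fl libraries 1, 2 and 4 (log2 fold change 1.36, SE 0.981, adjusted p = 0.471). The constant gene of IgA, *Igha*, was at 30.8, 18.1 and 1.10 CPM in wt/wt libraries and at 0.476, 69.8 and 28.7 CPM in fl/fl libraries. *Ighg2c* was at 39.3 CPM in fl/fl library 2 and at 0.366 CPM or below elsewhere, and *Ighg2b* was at 10.1 CPM in fl/fl library 4 and at 0.732 CPM or below elsewhere. *Igkc* and *Igha* were therefore high in fl/fl libraries 2 and 4 and low in fl/fl library 1, while *Ighm* itself was at 746, 561 and 656 CPM in these 3 libraries. *Ighd*, the IgD constant gene next to *Ighm*, was at 5.16 to 5.40 CPM in wt/wt libraries and at 6.82 to 14.5 CPM in fl/fl libraries (log2 fold change 0.77, adjusted p = 0.143).

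The leading V segment was read in each library. Among kappa V genes, the leading segment held between 39.4% and 78.5% of the counts, and it was Igkv1-110 in wt/wt library 1, Igkv8-24 in wt/wt library 2, Igkv2-137 in wt/wt library 4, Igkv14-111 in fl/fl library 1, Igkv6-23 in fl/fl library 2 and Igkv8-30 in fl/fl library 4. The leading kappa segment was thus a different one in each of the 6 libraries. Among heavy chain V genes, the leading segment was Ighv8-8 in wt/wt library 1 (71.8%), Ighv1-81 in wt/wt library 2 (55.0%) and fl/fl library 4 (51.6%), Ighv1-23 in wt/wt library 4 (27.3%) and fl/fl library 1 (32.8%), and Ighv10-1 in fl/fl library 2 (53.9%). Of the lambda V genes, Iglv1 led in all 6 libraries, on 1 to 50 lambda V counts per library.

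**Figure D4:**
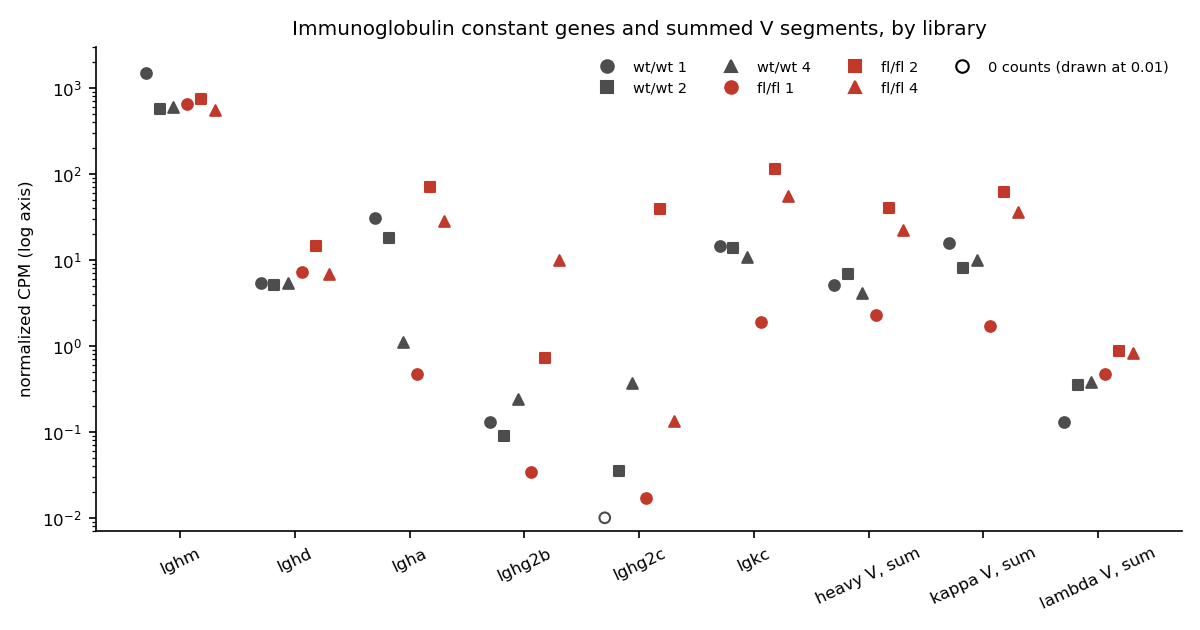
Normalized CPM (log axis) of *Ighm*, other immunoglobulin constant genes and the summed V segments in each library; grey is wt/wt, red is fl/fl, the marker shape gives the replicate number, and an open point is a count of 0 drawn at 0.01. *Ighm* lies between 561 and 1496 CPM in all libraries, while *Igkc* spans 1.91 to 114 CPM within the fl/fl libraries.

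Other genes of the B lineage were read as a list of 21, of which 20 were tested. At the threshold 1 rose and 0 fell, at an adjusted p below 0.05 4 were higher and 0 were lower, and the median log2 fold change was 0.74. Of all genes tested, edgeR called 1.28% higher and 0.872% lower at the threshold, and 4.45% and 3.38% at an adjusted p below 0.05. These shares also stand beside the counts of the lists described below. *Ly6d*, a surface marker of lymphoid progenitors biased to the B lineage, was the gene past the threshold. It was at 2.60, 6.59 and 7.68 CPM in wt/wt libraries and at 29.4, 24.3 and 21.2 CPM in fl/fl libraries (log2 fold change 2.14, SE 0.332, adjusted p = 0.00630). *Spib*, a transcription factor of B cells and plasmacytoid dendritic cells, was at 0.390 to 1.05 CPM in wt/wt and at 2.19 to 3.85 CPM in fl/fl libraries (log2 fold change 1.79, adjusted p = 0.0398). The 4 genes with an adjusted p below 0.05 were *Ly6d*, *Spib*, *Blk* and *Btk*, of which the last 2 encode kinases of B cell receptor signalling and were picked out after their values were seen.

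The regulators of early lymphoid cells were a list of 19 genes, of which 18 were tested. At the threshold 2 rose and 0 fell, at an adjusted p below 0.05 7 were higher and 0 were lower, and the median log2 fold change was 0.47. Of the 19 genes, 10 did not overlap between genotypes with fl/fl higher and 0 with fl/fl lower, against 16.2% and 15.1% of all genes tested. *Irf8*, a transcription factor of dendritic, myeloid and B cells, was at 251 to 288 CPM in wt/wt and at 585 to 764 CPM in fl/fl libraries (log2 fold change 1.28, SE 0.137, adjusted p = 0.00189). *Spi1*, which encodes PU.1, a factor of myeloid and early B cells, was at 1.56 to 3.28 CPM in wt/wt and at 9.26 to 12.8 CPM in fl/fl libraries (log2 fold change 2.23, SE 0.322, adjusted p = 0.00514).

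The genes that repair the breaks made by Rag1 and Rag2, a list of 20 genes that were all tested, were mostly not called. At the threshold 0 rose and 1 fell, at an adjusted p below 0.05 0 were higher and 2 were lower, and the median log2 fold change was −0.14. Of the 20 genes, 3 did not overlap between genotypes with fl/fl higher and 7 with fl/fl lower, against 16.2% and 15.1% of all genes tested. *Hmgb2*, a DNA-bending protein that helps the recombinase, fell by 0.83 on the log2 scale (SE 0.136, adjusted p = 0.00796), from 1033 to 1240 CPM in wt/wt libraries to 524 to 773 CPM in fl/fl libraries. *Xrcc5*, which encodes a subunit of the Ku complex that binds DNA ends, was at 43.2 to 60.2 CPM in wt/wt and at 26.4 to 32.3 CPM in fl/fl libraries (log2 fold change −0.79, adjusted p = 0.0234).

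Markers of other cell types of the BM differed between the genotypes too, and their part in the values of the members was not tested. Of 9 basophil and mast cell markers, 8 rose and 0 fell, and their summed level was 15.1 to 18.6 CPM in wt/wt and 122 to 335 CPM in fl/fl libraries. *Prss34* led in the fl/fl libraries (1.56 to 3.92 against 56.2 to 178 CPM), and *Cpa3* led in the wt/wt libraries (4.49 to 6.11 CPM). Of 11 tested neutrophil and monocyte markers out of 12, 6 rose and 0 fell, with summed levels of 92.8 to 152 and 577 to 932 CPM, led by *Mpo* (71.2 to 104 against 444 to 717 CPM). Of 8 erythroid markers 2 rose and 0 fell, while 7 were higher at an adjusted p below 0.05, and *Klf1* was at 0.520 to 1.53 against 7.54 to 9.53 CPM. Their summed levels were 611 to 845 and 1258 to 1635 CPM, of which *Car2* made up 565 to 641 and 486 to 721 CPM with a log2 fold change of −0.09, while the globin gene *Hba-a2* was at 15.1 to 102 against 194 to 441 CPM (log2 fold change 3.46, adjusted p = 0.0166). Of these lists no gene was at 0 in all 6 libraries.

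For the cell types that can themselves use the members, the median log2 fold changes lay closer to that of all genes than for these 3 lists. Of 7 tested plasmacytoid dendritic cell markers out of 8, 1 rose and 0 fell, with a median of 0.45 on the log2 scale and summed levels of 125 to 139 CPM in wt/wt and 163 to 184 CPM in fl/fl libraries. The one that rose was *Siglech*, at 2.86 to 5.72 CPM in wt/wt and 11.9 to 16.4 CPM in fl/fl libraries (log2 fold change 1.61, SE 0.240, adjusted p = 0.00564). Of the 8 markers, 5 did not overlap between genotypes with fl/fl higher, *Siglech* among them, and 1 did not overlap with fl/fl lower. Among all genes tested, 16.2% did not overlap with fl/fl higher and 15.1% with fl/fl lower. These shares stand beside the counts of the lists that follow as well. Of 13 tested T cell markers out of 14, 0 rose and 0 fell, with a median of 0.34, and the summed level was 923 to 1282 CPM in wt/wt and 926 to 1200 CPM in fl/fl libraries. Most of this sum came from *Trbc1* (474 to 519 CPM in wt/wt and 421 to 547 CPM in fl/fl) and *Trbc2* (134 to 254 and 196 to 261 CPM). The tested T cell markers with the smallest adjusted p were *Cd6* (2.76 to 5.77 against 5.31 to 13.4 CPM, log2 fold change 0.91, adjusted p = 0.0719) and *Themis* (1.93 to 2.00 against 3.33 to 4.39 CPM, log2 fold change 0.98, adjusted p = 0.0860), and of the 14 markers 2 did not overlap with fl/fl higher and 1 with fl/fl lower. *Ptcra*, which encodes a receptor chain typical of T cell precursors, was at 0.130 to 0.354 CPM in wt/wt and at 0.0837 to 0.357 CPM in fl/fl libraries. Of 6 tested plasma cell markers out of 7, 0 rose and 0 fell at the threshold, the median was 0.92, and 1 was higher at an adjusted p below 0.05, *Sdc1*, at 1.65 to 1.95 CPM in wt/wt and 3.97 to 4.87 CPM in fl/fl libraries (adjusted p = 0.0261). Of the 7 plasma cell markers, 3 did not overlap with fl/fl higher and 0 with fl/fl lower. The summed level of the plasma cell markers was 187 to 265 CPM in wt/wt and 227 to 298 CPM in fl/fl libraries. Most of it came from *Xbp1* (137 to 190 CPM in wt/wt and 158 to 166 CPM in fl/fl) and *Prdm1* (41.1 to 57.2 and 59.2 to 104 CPM). *Jchain*, which encodes the chain that joins secreted IgA and IgM, was at 15.1, 8.83 and 1.95 CPM in wt/wt libraries and at 1.77, 38.0 and 22.9 CPM in fl/fl libraries 1, 2 and 4. *Jchain* was thus high in the libraries where *Igha* and *Igkc* were high. Of 12 NK cell markers 0 rose and 0 fell, with a median of 0.05, while 3 did not overlap with fl/fl higher and 1 with fl/fl lower. *Prf1*, which encodes perforin, was at 498 to 689 CPM in wt/wt and 846 to 1988 CPM in fl/fl libraries (log2 fold change 0.93, adjusted p = 0.0771), and *Gzma*, which encodes granzyme A, was at 1516 to 2024 CPM in wt/wt and 900.5 to 1380 CPM in fl/fl libraries (log2 fold change −0.64, adjusted p = 0.0564).

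**Figure D5:**
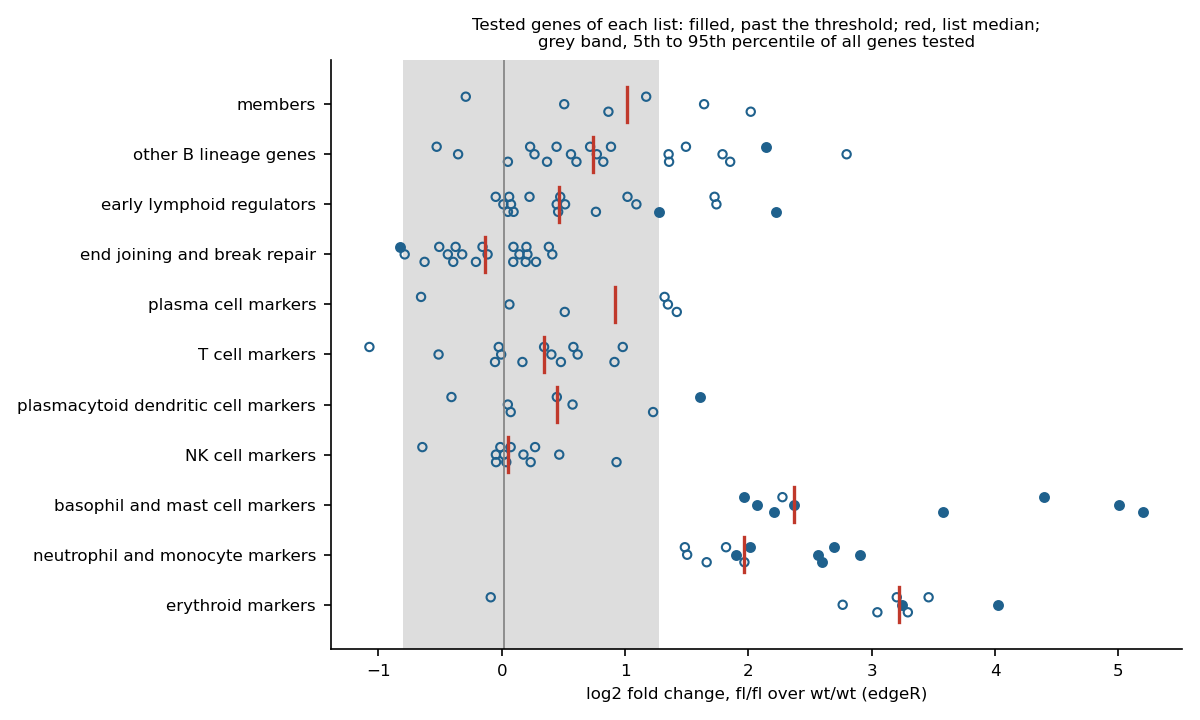
Log2 fold change (fl/fl over wt/wt, horizontal axis) of every tested gene of the members and of each list (rows); filled points pass the threshold, red bars are list medians, and the grey band holds the middle 90% of all tested genes. The members have a median of 1.02 and none past the threshold, and the basophil and mast cell markers have a median of 2.37.

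The genes whose pattern over the 6 libraries was most like that of the members were sought by the Pearson correlation of log2(CPM + 0.5) with the mean of the same value over the 10 members. That mean was 0.81, 1.14 and 1.23 in wt/wt libraries 1, 2 and 4 and 1.49, 1.50 and 1.86 in fl/fl libraries, lowest in the shallow library and highest in fl/fl library 4. The 5 tested genes with the highest r were *Dok3* (0.998), *Fam214b* (0.996), *Tob1* (0.995), *Spsb2* (0.995) and *Rassf9* (0.993). They are the top of 15474 genes over only 6 libraries that also differ in depth, so the values describe likeness and carry no test. *Dok3*, which encodes an adaptor protein of immune receptor signalling, was likewise lowest in wt/wt library 1 and highest in fl/fl library 4, with 0.260, 0.744 and 1.01 CPM in wt/wt libraries and 1.79, 1.65 and 3.12 CPM in fl/fl libraries (log2 fold change 1.64, adjusted p = 0.0470).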

How the data were processed

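RNA from sorted CD27SP NK cells was reverse transcribed with the SMART-Seq v4 kit after polyA selection, and sequenced single end on a NovaSeq. The deposited tables hold 100583 mouse transcripts, each with an estimated count, which is not normalized, and a TPM value. The methods name Salmon within nf-core/RNAseq and GRCh38, whereas the identifiers are of mouse and the columns are those of kallisto; versions are not given in the sources used here. The estimated counts of a symbol's transcripts were added up by GENCODE M21 (GRCm38, 100239 transcripts found, 0.129% to 0.169% of counts unmatched) and rounded. Genes kept by filterByExpr (15474) were scaled by TMM factors, and the genotypes were tested in edgeR (4.0.16, R 4.3.3, quasi-likelihood). The replicate number was a block, as the study describes its analysis as paired. P-values were Benjamini-Hochberg adjusted across the whole table. The threshold was an adjusted p below 0.01 together with a log2 fold change of 0.5 or more in size. CPM values are TMM-normalized, and SDs are over 3 libraries. Alternatives were DESeq2 (1.42.0), limma-trend (3.58.1), other normalizations and filters, effective length offsets, and libraries left out.

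The members and lists were chosen with earlier results of these data known. Beside the members, the text names the 2 tested genes of each list with the smallest adjusted p and, in marker lists, genes among the 3 most abundant, as well as *Myc*, overlapping genes and the 5 genes most like the members. *Ptcra*, *Blk* and *Btk* were added after their values were seen. Libraries of 1 genotype differed by more than counting noise (chi-square per degree of freedom 40.1 to 101.6). On simulated counts (15160 genes tested), edgeR with the block recovered 45% of the genes given a change of 1 on the log2 scale and 72% of those given 2, with 6 unchanged genes called.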

Additional observations from a re-analysis of the deposited data

How the results depend on the processing

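The count of members past the threshold was 0 higher and 0 lower, and no alternative gave a member that was lower. The count of higher members was 1, *Dntt*, in DESeq2, without a filter on low counts, and at the looser limit of 0.05 for the adjusted p, and with libraries left out it was between 0 and 1, the 1 being *Dntt* without replicate 4 (log2 fold change 2.75, adjusted p = 4.6e-04). Under the largest adjusted p of edgeR, DESeq2 and limma-trend it was 0. The cause of these differences was not tested. *Ighm* changed sign without replicate 1 (0.15) and without wt/wt library 1 (0.15), and *Ebf1* changed sign without replicate 4 (−0.0050) and without fl/fl library 4 (−0.0883). For *Ighm*, the log2 fold changes lay between −0.63 and 0.15 with a replicate number left out and between −0.66 and 0.15 with a single library left out, and for *Ebf1* those of both kinds lay between −0.0883 and 1.36. *Dntt*, *Cd79a*, *Cd79b* and *Rag2* kept a positive log2 fold change in every alternative in which they were tested, from 1.47 to 2.75, 0.88 to 2.19, 0.59 to 1.10 and 0.63 to 2.01. *Cd79a*, *Ebf1* and *Rag2* were not tested when 10 counts were required in every library. Over all genes, edgeR called 198 higher and 135 lower at the threshold. Among the alternative fits at the same threshold, this ranged from 19 higher and 6 lower without fl/fl library 2 to 643 higher and 537 lower in DESeq2. At an adjusted p below 0.05 with no fold change limit, edgeR called 689 higher and 523 lower.

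The correlation of deviations from the genotype means between libraries of the same replicate number was −0.012, −0.020 and 0.050 for 1, 2 and 4, under the limit of 0.1, which does not show a pairing by number. With no replicate block, 0 members were higher and 0 lower, *Dntt* had a log2 fold change of 1.79 (adjusted p = 0.0275), and 203 genes were higher and 184 lower in all. *Vpreb1*, *Igll1*, *Pax5* and *Rag1* had 0 counts in at least 1 library of each genotype, deep libraries included. In wt/wt library 1 a count of 0 allows a level of up to 0.390 CPM.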
